A study of Mus musculus with 6 samples.

Results

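The genes described here encode the proteasome, its activators, its inhibitor and the factors that assemble it. They were taken by symbol, as every array row that named a single gene whose symbol was Psm followed by a letter from a to g and a number, and 46 of the 30702 genes measured met this rule. Each of the 46 had 1 row. Psmb5 and Psme2 are not analysed here because their rows also name other genes. The members comprised 8 genes of the core alpha ring (Psma), 7 of the core beta ring and 3 immunosubunits (both Psmb), 6 ATPases (Psmc), 14 genes of the lid and base (Psmd), 3 activators (Psme), the inhibitor Psmf1 and 4 assembly chaperones (Psmg). The Psmd genes include 3 chaperones that assemble the base.

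RNA came from mouse CD4+ T cells that had been sorted as naive (CD25-, CD62L+, CD44-), stimulated through CD3 and CD28 and skewed toward TH17, the helper subset that secretes IL-17, for 3 days. Both groups were kept in IMDM with 10% serum, to which TH17-skewing cytokines were added: 20 ng/ml of IL-6, 20 ng/ml of IL-23 and 1.25 ng/ml of TGF-beta. Neutralising antibodies to IL-12, IL-4 and IFN-gamma were present in both at 10 ug/ml. The groups differed in glutamine, which was present in 3 cultures and left out of 3. The sources used here do not give mouse strain, sex or age. The labels call the replicates biological without saying that each came from its own mouse, and the p-values therefore cover only the variation among these 6 arrays. The T cell genes Cd3e and Cd4 had mean levels between 16.44 and 16.90 log2 in both groups, and of 10 T cell identity genes 3 were higher without glutamine, 1 was lower and 6 did not pass. After quantile normalization 2 were higher and 3 lower, with Cd3e (adjusted p = 0.0328) and Cd4 (0.00637) among the lower. The TH17 cytokine gene Il17a was at 12.75 ± 0.41 log2 (SD, n = 3) with glutamine and fell by 6.81 log2 without it, and of 11 TH17 genes 4 were higher, 5 lower and 2 did not pass. Among all genes, 9.30% were higher and 13.0% lower, and among those above the median level 13.7% and 24.9%. After quantile normalization 4.73% of all genes were higher and 17.1% lower.

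The proteasome is the protease that degrades proteins tagged with ubiquitin. Its barrel-shaped core has outer alpha rings, which gate entry, and inner beta rings, which hold the proteolytic sites. A regulatory particle caps the barrel: its base carries a ring of ATPases that unfold substrates, and its lid removes ubiquitin. Interferon-gamma induces alternative catalytic beta subunits, the immunosubunits, which lymphocytes also express at rest and which favour peptides that fit MHC class I. Activated T cells divide fast and turn over much protein, and when proteasome activity falls, the transcription factor encoded by Nfe2l1 raises many of these genes together through antioxidant response elements.

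Of the members that were lower without glutamine, 6 had the letters of an antioxidant response element upstream of the gene. These stretches are shown because that element is a known route of joint control of the family. The letters also stood upstream of 5 members that did not pass, which are not shown. Of the 46 members, 38 had a promoter in the RefSeq table (GRCm38.p6), and the 250 bases before the start were searched on both strands for the letters TGACNNNGC or TGAGNNNGC, which are in capitals below on whichever strand they lie.
Psmb6, chr11:70525322-70525356, plus strand: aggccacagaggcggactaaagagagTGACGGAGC
Psmc6, chr14:45329574-45329617, plus strand: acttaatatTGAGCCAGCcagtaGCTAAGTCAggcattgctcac
Psmd1, chr1:86064369-86064429, plus strand: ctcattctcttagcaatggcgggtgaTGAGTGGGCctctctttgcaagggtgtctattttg
Psmd5, chr2:34871081-34871141, minus strand: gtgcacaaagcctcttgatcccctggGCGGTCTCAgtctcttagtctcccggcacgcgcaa
Psmd9, chr5:123228133-123228189, plus strand: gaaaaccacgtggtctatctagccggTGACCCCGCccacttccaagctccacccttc
Psmd12, chr11:107479278-107479315, plus strand: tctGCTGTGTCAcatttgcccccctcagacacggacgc
The letters were present in 11 of the 38 genes (28.9%), against 23.0% of all 32851 promoters in the table and 23.6% of those of protein coding genes. They stood upstream of 6 of 21 members that were lower without glutamine and of 5 of 17 that did not pass the test. CCAAT, the box of the factor NF-Y, was found in 36.8% of the member genes against 33.9% of all promoters and 35.4% of those of protein coding genes. The ETS core CGGAAG was found in 50.0% against 13.6%, and in 17.1% of promoters of protein coding genes. It stood in 8 of the 21 lower members and in 11 of the other 17. GGGCGG, the GC box, was found in 55.3% of the member genes against 32.7% of all promoters and 42.6% of those of protein coding genes, in 14 of the 21 lower and 7 of the other 17. For every motif, a member gene counted if any of its promoters held the letters (40 promoters for the 38 genes). The shares of all promoters and of those of protein coding genes are per promoter. A match is a run of letters and not a binding site, and the motifs were chosen after a first look at the promoters.

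Without glutamine, RNA was lower for 12 of 14 genes of the lid and base, 5 of 8 of the core alpha ring and 2 of 3 immunosubunits. It was lower for 2 of 7 genes of the core beta ring and 2 of 6 ATPases, shares near those of other genes of like level given below, and for 0 of 3 activators. Of the 46 members, 25 were lower and 0 were higher at an adjusted p under 0.05 (limma, Benjamini-Hochberg over all genes), and 21 did not pass. At an unadjusted p under 0.05, 1 member was higher, Psmg4. Among all genes, 13.0% were lower and 9.30% higher, and among the genes above the median level, where 44 of the 46 members lie, 24.9% were lower and 13.7% higher. The median change of the members was -0.40 log2, against 0.060 for all genes and -0.059 for genes above the median level. The changes ran from -1.20 for Psmb8 to 0.45 for Psmg4. The groups did not overlap in 29 members that were lower and in 1 that was higher, against 18.8% and 25.0% of all genes. In a bulk culture, fewer cells of a type and less RNA per cell cannot be told apart.

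**Figure D1:**
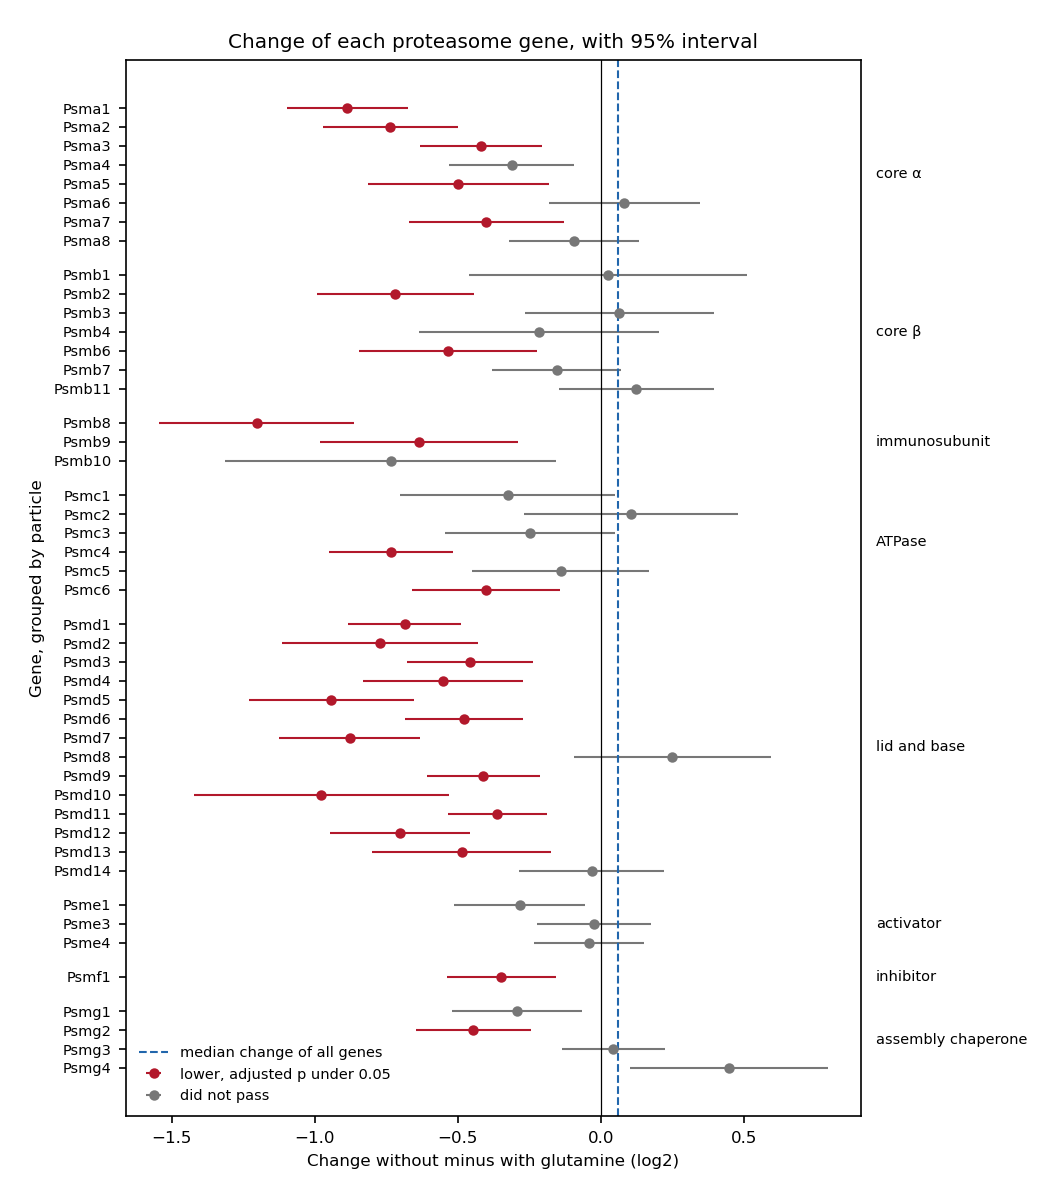
Change of each of the 46 genes (x axis, log2 level without minus with glutamine, n = 3 arrays per group) with its 95% interval, grouped by particle on the y axis; red marks genes past the threshold, grey those that did not pass, and the dashed line is the median change of all genes, 0.060. The 25 red points all lie below 0, and 12 of them belong to the lid and base.

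The 25 calls were also read under other scalings of the arrays. After quantile normalization 28 members were lower and 0 higher, against 17.1% and 4.73% of all genes, and after centring each array on its median 29 were lower and 0 higher, against 20.0% and 3.96%. All 25 members lower as deposited were called lower after both. These shares are of all genes, not of genes of like level. As deposited, 13.0% of all genes were lower but 24.9% of those above the median level, where 44 members lie. The latter share was not computed after either scaling. The median change over all genes moved from 0.060 to -0.048 and -0.095 under these scalings, and that of the members from -0.40 to -0.46 and -0.56. The share of rises among the called genes of the whole array moved with them, from 41.7% to 21.7% and 16.6%.

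The arrays of a group also differed in the level of the members. Whether other genes of like level differed among the arrays in the same way was not tested. With glutamine, 39 of the 46 members were highest on replicate 1, whose median deviation from the group mean was 0.13 log2 against 0.019 over all genes. Without glutamine, 35 members were highest on replicate 1 and 35 were lowest on replicate 3, whose median deviation was -0.10 against -0.019. The number of lower members was 21 when replicate 1 with glutamine was left out, 13 when the glutamine-free replicate 2 was and 15 when the glutamine-free replicate 3 was. Of the 25 lower members, 13 passed whichever array was left out, and the other 12 are named below with the highest adjusted p that leaving out an array gave. All 12 lost the call when glutamine-free replicate 2 was left out.

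**Figure D2:**
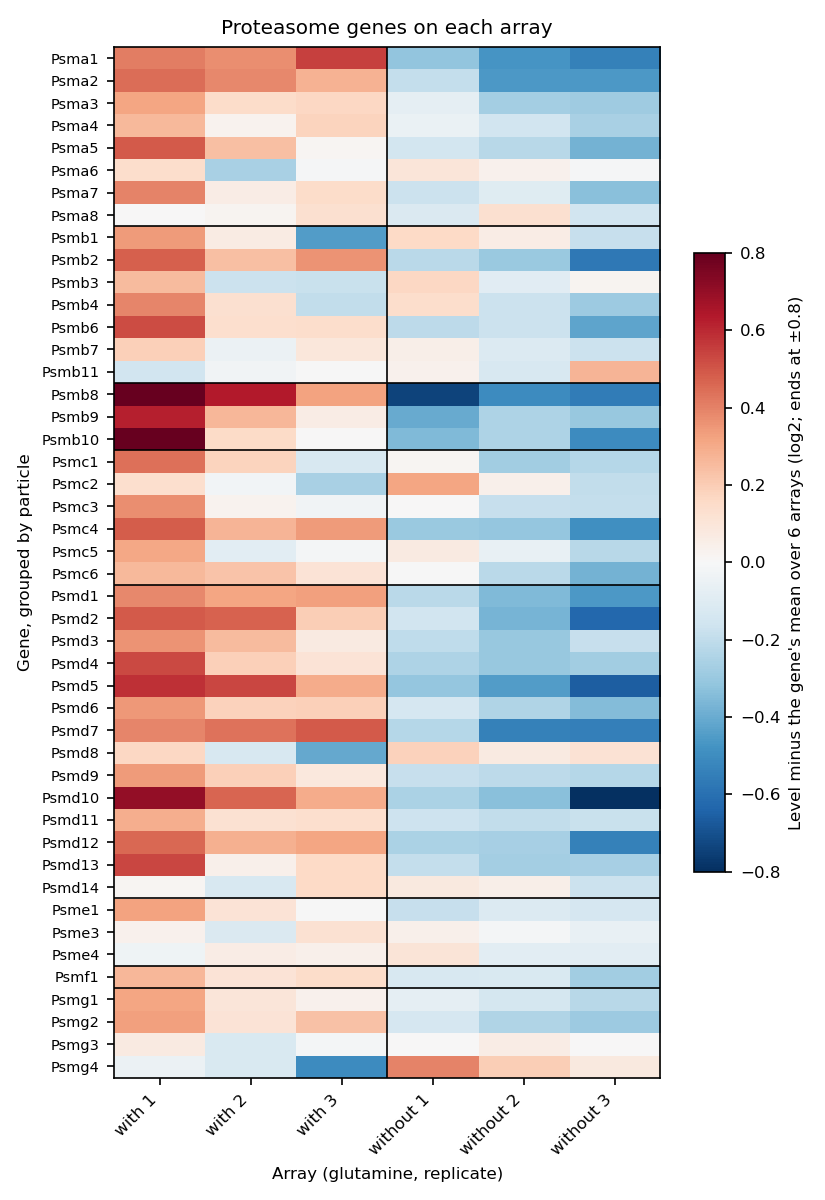
Level of each gene on each array minus its mean over the 6 arrays (colour, log2, scale ending at ±0.8), with genes in rows grouped by particle and arrays in columns, glutamine on the left of the vertical line. Most rows are red on the left and blue on the right, and within each group replicate 1 is the reddest column, with 39 and 35 of the 46 genes highest there.

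The immunosubunit Psmb8 showed the largest change of the family. Psmb8 replaces Psmb5 and carries chymotrypsin-like activity. With glutamine its levels were 10.76, 10.55 and 10.24 log2 on replicates 1 to 3, and without glutamine 9.18, 9.42 and 9.36. All 3 glutamine-free arrays lay below all 3 others, by a mean of 1.20 log2 (SE 0.14, adjusted p = 0.00229), and the call held whichever array was left out.

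Psmb9, the immunosubunit that takes the place of the caspase-like Psmb6, stood at 8.07, 7.71 and 7.51 log2 with glutamine and at 7.05, 7.20 and 7.14 without it. It fell by 0.64 log2 without overlap (SE 0.14, adjusted p = 0.0232). Without one array the adjusted p rose as far as 0.0724. Psmb10, the trypsin-like immunosubunit that replaces Psmb7, had levels of 9.27, 8.48 and 8.33 with glutamine and 7.97, 8.08 and 7.82 without it. Its groups did not overlap, but the array of replicate 1 with glutamine stood well above the other two, giving it the widest spread of the members (SD 0.51, n = 3), and the change of -0.74 did not pass (SE 0.24, adjusted p = 0.0741). Without that array the change was -0.45 and passed (adjusted p = 0.0429), as it did without replicate 3 with glutamine (0.0425). With all arrays it passed after centring (0.0382) and among genes above the median level alone (0.0423), and not after quantile normalization (0.071).

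Of the constitutive partners, Psmb6 read 11.40, 11.01 and 11.01 log2 with glutamine and 10.66, 10.70 and 10.45 without it, a fall of 0.53 without overlap (SE 0.13, adjusted p = 0.0295, and up to 0.0876 without one array). Psmb7 read 14.47, 14.24 and 14.37 against 14.33, 14.18 and 14.11, with overlapping groups and a difference of -0.16 (95% interval -0.38 to 0.07). It did not pass as deposited (adjusted p = 0.28) but did after quantile normalization (0.0493).

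Whether an immunosubunit changed more than its partner was asked with the difference of the pair's log2 levels within each array, which centring cannot alter. Psmb10 minus Psmb7 averaged -5.67 ± 0.43 (SD, n = 3) with glutamine and -6.25 ± 0.14 without it, a shift of -0.58 with no overlap of the groups. The shift was -0.35 when replicate 1 with glutamine was left out, and after quantile normalization it was -0.44 (exact permutation p = 0.4). Psmb9 minus Psmb6 averaged -3.38 ± 0.11 and -3.48 ± 0.16, and shifted by -0.10 with overlapping groups. In exact two-sided permutation tests the p values were 0.1 and 0.5, or 0.2 and 0.5 adjusted over the 2 pairs, and 0.1 is the smallest value that 3 arrays against 3 can give. The third pair, Psmb8 and Psmb5, was not analysed here. The unequal change of a pair does not say which gene is more abundant, because levels of different rows are not on one scale.

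Psmb8 and Psmb9 lie beside Tap1 and Tap2, the peptide transporter genes, in the MHC region of chromosome 17, in the order Psmb9, Tap1, Psmb8, Tap2 in RefSeq. Psmb9 and Tap1 start 225 bases apart and run in opposite directions from that shared stretch. Tap1 stood at 10.70, 10.54 and 10.44 log2 with glutamine and at 10.57, 10.63 and 10.74 without it, overlapping groups with a difference of 0.09 (95% interval -0.13 to 0.31, adjusted p = 0.511), while Psmb9 fell. Tap2 differed by -0.26 (adjusted p = 0.101), which passed after centring (0.0274). The comparison of neighbours was chosen after their values were seen. The whole stretch between Psmb9 and Tap1 and the 250 bases before Psmb8 and Psmb10 are shown because the immunosubunits had the lowest median change of the particles, -0.74. Capitals mark the letters of a gamma-activated site, TTCNNNGAA, where present.
Psmb8, chr17:34197945-34198194, plus strand: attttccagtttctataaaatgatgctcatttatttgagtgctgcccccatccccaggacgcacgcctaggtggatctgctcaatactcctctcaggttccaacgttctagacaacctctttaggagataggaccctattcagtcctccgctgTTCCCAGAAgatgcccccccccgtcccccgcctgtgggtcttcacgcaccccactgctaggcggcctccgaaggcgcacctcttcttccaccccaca
Psmb9, chr17:34187331-34187555, minus strand: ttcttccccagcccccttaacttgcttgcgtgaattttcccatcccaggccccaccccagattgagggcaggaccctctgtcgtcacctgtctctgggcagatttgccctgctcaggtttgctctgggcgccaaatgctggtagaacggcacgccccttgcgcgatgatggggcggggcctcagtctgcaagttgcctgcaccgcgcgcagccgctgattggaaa
Psmb10, chr8:105938393-105938642, minus strand: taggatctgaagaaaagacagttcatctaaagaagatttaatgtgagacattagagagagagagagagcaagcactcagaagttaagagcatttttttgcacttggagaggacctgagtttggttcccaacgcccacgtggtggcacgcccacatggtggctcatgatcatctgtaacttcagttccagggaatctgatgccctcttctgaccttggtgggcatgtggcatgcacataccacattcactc
Of these 3 stretches, that of Psmb8 held the letters and the other two did not. The gamma-activated letters were found in 7.02% of all promoters and in 2 of the 38 member genes, and the core of the interferon-stimulated response element in 2.98% and in 3 of the 38, none of them an immunosubunit.

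**Figure D3:**
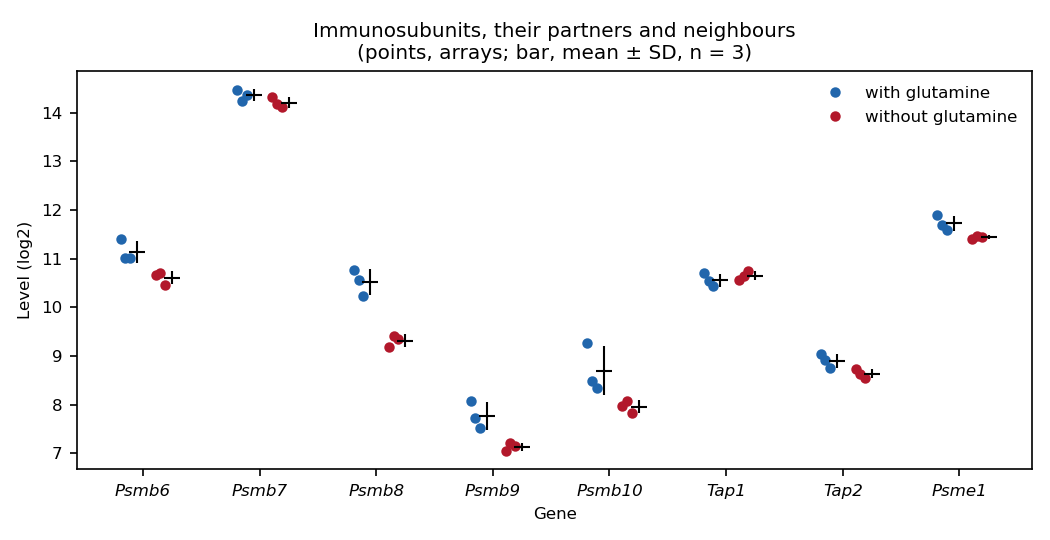
Level (y axis, log2) of the 3 immunosubunits, 2 constitutive partners, the neighbours Tap1 and Tap2 and the activator Psme1 (x axis) on each of 3 arrays with glutamine (blue) and 3 without it (red), with mean ± SD beside the points. The groups of Psmb8, Psmb9 and Psmb10 do not overlap, and those of Tap1 do.

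Genes of interferon signalling, which acts on the immunosubunits, moved both ways. Of 13 measured, 2 were higher, 3 were lower and 8 did not pass, and after either scaling 2 were higher and 4 or 5 lower. Among all genes above the median level, 13.7% were higher and 24.9% lower as deposited. Ifng rose from 5.55 ± 0.33 to 7.53 ± 0.61 log2 (SD, n = 3, adjusted p = 0.00668) in medium that held a neutralising antibody to its product. Irf8, an interferon-regulated transcription factor, rose by 0.86. The receptor chain gene Ifngr1 fell by 1.03 log2, and Stat2, a signal transducer of type I interferon, fell by 1.21. Ifnar1, a receptor chain of type I interferon, fell by 0.40 (adjusted p = 0.027), a call kept in 1 of 6 fits with an array left out. Irf1, an activator of immunosubunit genes downstream of interferon-gamma, differed by 0.37 and did not pass (adjusted p = 0.0886).

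Presentation by MHC class I involved 11 measured genes outside the family, of which 3 were lower, 0 higher and 8 did not pass (4 and 7 were lower after quantile normalization and centring). The lower share as deposited was near the 24.9% of all genes above the median level. Tapbpl, a peptide editor, fell by 0.94 log2, and the chaperone genes Pdia3 and Calr fell by 0.39 and 0.36. B2m, the invariant chain of class I, differed by 0.08 (95% interval -0.08 to 0.23), and the class I genes H2-K1 and H2-D1 by -0.11 and 0.09, with adjusted p from 0.285 to 0.536 for the 3 genes. H2-K1 passed after centring (0.0441).

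Immunosubunits are also abundant in antigen-presenting cells, so markers of other cells were read beside them. Their counts stand against 13.0% lower and 9.30% higher among all genes as deposited, and 20.0% lower after centring. The mean level of the 6 measured B cell markers lay between 3.79 and 3.83 log2 on the arrays with glutamine and between 3.83 and 3.93 without it, below the array medians, and 0 of 6 passed. Of 9 myeloid markers 2 were lower and 1 higher, with mean levels of 4.42 to 4.51 against 4.33 to 4.39: Lyz2 fell from 5.80 ± 0.33 to 4.14 ± 0.14, S100a8 fell by 0.55 to 3.12 ± 0.23 (adjusted p up to 0.0925 without one array), and Cd68 rose by 1.58. The defining receptors Csf1r, Adgre1, Cd14 and Itgam had mean levels between 3.51 and 3.93 in both groups, below the array medians. Of 7 dendritic cell markers 1 was lower, the class II gene H2-Ab1, which fell from 8.93 ± 0.64 to 6.45 ± 0.20, and the mean level was 4.45 to 4.65 against 4.17 to 4.28. After centring 2 were lower. Of 8 CD8 and NK markers Klrd1 fell by 1.42 log2, Cd8b1 by 0.71 and Gzma rose by 0.26, a call lost after both scalings (0.308 and 0.285) and without any single array. Cd8a had mean levels of 3.83 and 3.78, and the mean level of the 8 was 4.99 to 5.10 against 4.75 to 4.88. Their part in the fall of the immunosubunits was not tested.

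In the core alpha ring, 5 of 8 genes were lower, 0 higher and 3 did not pass, with a median change of -0.41. Psma1 had the largest: its levels were 12.23, 12.19 and 12.37 log2 with glutamine and 11.50, 11.35 and 11.28 without it, a fall of 0.89 (SE 0.09, adjusted p = 0.00125). Psma2 went from 13.80, 13.74 and 13.63 to 13.17, 12.90 and 12.90, a fall of 0.74 (SE 0.10, adjusted p = 0.00361). For both genes every glutamine-free array lay below every array with glutamine, and both calls held without any single array.

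Psma5 (-0.50), Psma3 (-0.42) and Psma7 (-0.40) were also lower without overlap, but their adjusted p rose as far as 0.113, 0.0698 and 0.127 when an array was left out, and Psma7 lost the call whichever array was dropped. Psma4 differed by -0.31 without overlap and just missed (adjusted p = 0.053), passing after quantile normalization (0.0151) and centring (0.0129). Psma6 belongs to the same ring but differed by 0.08 (95% interval -0.18 to 0.34) with overlapping groups. Psma8, a testis form of an alpha subunit, lay between 3.95 and 4.23 on all arrays, around the array medians.

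In the beta ring without the immunosubunits, 2 of 7 genes were lower, 0 higher and 5 did not pass, with a median change of -0.16. Psmb2, a structural subunit with no proteolytic site, stood at 10.51, 10.27 and 10.39 log2 with glutamine and 9.81, 9.73 and 9.46 without it. It fell by 0.72 with no overlap (SE 0.12, adjusted p = 0.00691), and Psmb6 was the other that fell. The structural genes Psmb1, Psmb3 and Psmb4 differed by 0.02, 0.06 and -0.22, with 95% intervals of -0.46 to 0.51, -0.27 to 0.39 and -0.64 to 0.20. Falls of the size seen in Psma1 lie outside all 3 intervals. The median change of the family, -0.40, lies outside that of Psmb3 but inside those of Psmb1 and Psmb4. A fall of that size is therefore not excluded for Psmb1 and Psmb4. Psmb11, a subunit of the thymus, lay between 2.81 and 3.23 on all arrays, below the array medians.

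Of the 6 ATPases, 2 were lower, 0 higher and 4 did not pass, with a median change of -0.29. Psmc4 read 12.87, 12.66 and 12.73 log2 with glutamine and 12.09, 12.07 and 11.89 without it. These groups were far apart, with a fall of 0.73 (SE 0.09, adjusted p = 0.00268). Psmc6 went from 14.29, 14.26 and 14.14 to 14.03, 13.81 and 13.65, a smaller fall of 0.40 without overlap (SE 0.11, adjusted p = 0.0407), a call kept only when the glutamine-free replicate 1 was left out (adjusted p up to 0.116 for the other arrays). Psmc1 (-0.33), Psmc3 (-0.25), Psmc5 (-0.14) and Psmc2 (0.10) overlapped between groups, with adjusted p of 0.185 to 0.663. All ATPases are parts of the same ring. The interval of Psmc2, -0.27 to 0.48, did not meet that of Psmc4, -0.95 to -0.52. They are the ATPases with the highest and the lowest change, so the contrast is a description. The change of Psmc2 was -0.02 after quantile normalization and -0.05 after centring.

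Among the Psmd genes, 12 of 14 were lower, 0 higher and 2 did not pass, with a median change of -0.52. All 3 chaperones that assemble the base were lower, with a median change of -0.94. Psmd10, which encodes gankyrin, read 11.31, 11.07 and 10.89 log2 with glutamine and 10.34, 10.26 and 9.72 without it, a fall of 0.98 (SE 0.19, adjusted p = 0.0128). Psmd5 went from 12.18, 12.13 and 11.89 to 11.29, 11.15 and 10.94, a fall of 0.94 (SE 0.12, adjusted p = 0.00308). Both sets of arrays were clear of each other. Psmd9 fell by 0.41 from a low level of 6.37 ± 0.13 (adjusted p = 0.0151, and up to 0.0545 without one array).

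The 3 scaffold and ubiquitin receptor genes of the base were lower as well. Psmd2, the docking site for ubiquitin-like domains, fell by 0.77 and Psmd1, its neighbour in the base, by 0.69, and both held without any array. The ubiquitin receptor gene Psmd4 fell by 0.55 (adjusted p = 0.0182, and up to 0.0667 without one array).

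In the lid, 6 of 8 genes were lower and 2 did not pass, with a median change of -0.47. Psmd7 and Psmd14 encode the dimer at the heart of the lid, in which Psmd14 is the enzyme that cuts off ubiquitin chains. Psmd7 levels were 14.96, 15.00 and 15.06 log2 with glutamine and 14.34, 14.03 and 14.02 without it, a fall of 0.88 (SE 0.10, adjusted p = 0.00222). Psmd14 levels were 11.59, 11.44 and 11.73 against 11.65, 11.62 and 11.40, overlapping groups with a difference of -0.03 (95% interval -0.29 to 0.22). The pair was picked out after its values were seen, so the contrast is a description.

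The horseshoe of structural lid subunits otherwise moved down. Psmd12 fell by 0.70 from 14.31 ± 0.09 log2 (SD, n = 3), Psmd6 by 0.48 and Psmd11 by 0.36 (adjusted p up to 0.0561 without one array), Psmd3 by 0.46 (adjusted p up to 0.0605) and Psmd13 by 0.49 (adjusted p up to 0.119). Psmd8, of the same build, was the exception: its levels were 12.97, 12.68 and 12.39 with glutamine and 12.98, 12.87 and 12.92 without it, a difference of 0.25 (95% interval -0.10 to 0.59, adjusted p = 0.26).

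The 3 activators measured, which open the core in place of the regulatory particle, did not pass. Psme1, a cytosolic activator chain induced by interferon, read 11.90, 11.69 and 11.58 log2 with glutamine and 11.40, 11.47 and 11.45 without it, non-overlapping groups that differed by -0.29 (SE 0.10, adjusted p = 0.0781). It passed after quantile normalization (0.0335) and centring (0.0181). Psme3, the nuclear activator, read 15.05, 14.90 and 15.14 against 15.06, 15.00 and 14.96, a difference of -0.03 (95% interval -0.23 to 0.17). Psme4, a large single-chain activator, read 10.44, 10.54 and 10.52 against 10.58, 10.39 and 10.39, a difference of -0.04 (95% interval -0.23 to 0.15). Both intervals, as deposited, lie above the median change of the family, -0.40. After quantile normalization Psme3 changed by -0.25 and Psme4 by -0.08, against a family median of -0.46. After centring they changed by -0.18 and -0.20, against -0.56. Psmf1, named as an inhibitor of the core, read 8.99, 8.84 and 8.88 against 8.60, 8.61 and 8.45 and fell by 0.35 (SE 0.08, adjusted p = 0.0237, and up to 0.0698 without one array).

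The assembly chaperones of the alpha ring work as 2 pairs, Psmg1 with Psmg2 and Psmg3 with Psmg4. Psmg2 read 12.36, 12.15 and 12.27 log2 with glutamine and 11.90, 11.80 and 11.74 without it, a fall of 0.45 (SE 0.08, adjusted p = 0.0121), and its partner Psmg1 differed by -0.29 (adjusted p = 0.0712). In the other pair, Psmg4 was the only member whose groups separated upward, from 8.03, 7.95 and 7.57 to 8.47, 8.27 and 8.15, a difference of 0.45 that did not pass (SE 0.14, adjusted p = 0.0714). It passed with the replicate number as a block (0.0281) and among genes above the median level (0.0465), but not after either scaling. Psmg3 had low levels in both groups, 5.16 ± 0.10 and 5.20 ± 0.03.

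**Figure D4:**
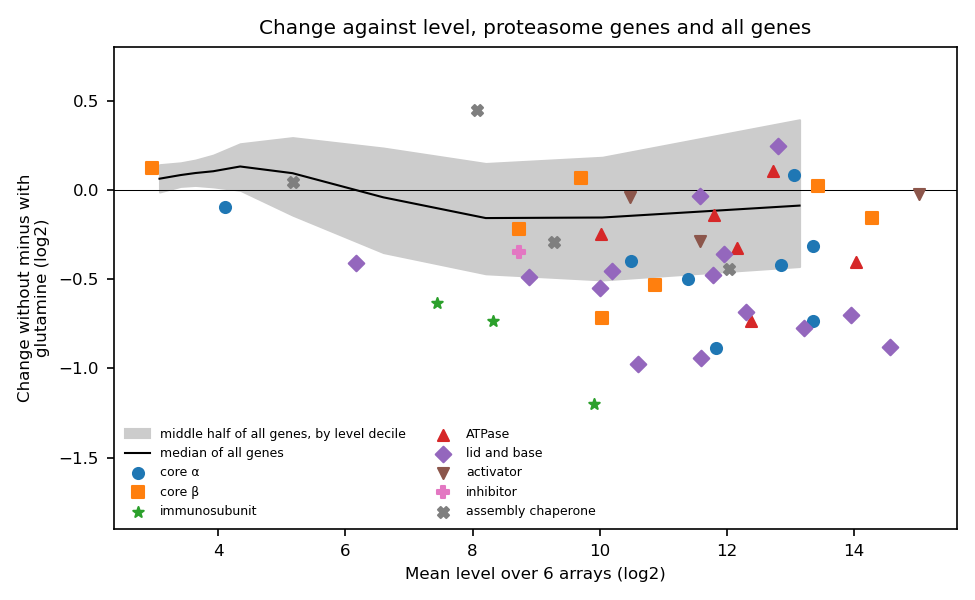
Change without minus with glutamine (y axis, log2) against the mean level over 6 arrays (x axis, log2) for the 46 genes, with a symbol per particle, over the interquartile range (grey) and median (line) of all genes by decile of level. In the top decile, which holds 25 members, the median of all genes is -0.088 and 27.3% of genes were lower, and 14 of the 25 members were.

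Partners of the proteasome outside the family were read next. Of 13 measured, 6 were lower, 0 higher and 7 did not pass, with a median change of -0.28. All genes above the median level were lower in 24.9% of cases, with a median change of -0.059. Uchl5, a deubiquitinase of the base, fell from 14.17 ± 0.07 to 13.11 ± 0.10 log2 (SD, n = 3, adjusted p = 0.000529) and Txnl1, a thioredoxin-like protein bound to the proteasome, fell by 0.91. The substrate shuttle gene Rad23b fell by 0.54 (adjusted p up to 0.0529 without one array) and Pomp, which matures the core, by 0.49 (adjusted p = 0.0175, and up to 0.0542). The other lower genes were the deubiquitinase gene Usp14 (-0.32), whose call was lost without any single array, and Ecpas (-0.39), whose call was kept in 2 of 6 such fits. Adrm1 is not analysed here.

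Of 11 regulators of proteasome genes, 2 were higher, 3 lower and 6 did not pass. For comparison, 13.7% of all genes above the median level were higher and 24.9% lower. Nfe2l1 stood at 11.01, 11.00 and 10.93 log2 with glutamine and 11.03, 10.79 and 10.94 without it, overlapping groups with a difference of -0.06 (95% interval -0.25 to 0.14). Ngly1, whose product strips sugars from the Nfe2l1 protein and so permits its activity, rose from 9.06 ± 0.14 to 9.81 ± 0.13 (adjusted p = 0.00421). Nfe2l2, the related factor of oxidative stress, fell by 0.38 (adjusted p = 0.0445), a call lost after quantile normalization (0.0531) and up to 0.124 without one array. Stat3, the transcription factor of IL-6 signalling, fell by 0.54 (adjusted p up to 0.0703 without one array), while Nfya rose by 0.43 and Nfyc fell by 0.42 (adjusted p up to 0.0536), the last pair both being subunits of NF-Y.

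Upstream of the proteasome, 6 of 13 genes of the unfoldase Vcp and its cofactors were lower, 0 higher and 7 did not pass (8 and 10 were lower after quantile normalization and centring). Vcp, which extracts ubiquitin-tagged proteins from membranes and complexes, fell from 14.11 ± 0.08 to 13.56 ± 0.17 log2 (SD, n = 3, adjusted p = 0.0116). Its cofactor genes Plaa (-0.55), Ubxn7 (-0.51) and Faf1 (-0.48, adjusted p up to 0.0626 without one array) were lower too. The calls of Ubxn4 (-0.26) and Yod1 (-0.22) were kept in 1 and 0 of 6 fits with an array left out. Of 8 ubiquitin-activating and -conjugating enzyme genes, 3 were lower, 0 higher and 5 did not pass (3 and 5 were lower after the scalings), the lower ones being Ube2n (-0.56), Uba6 (-0.51, adjusted p up to 0.0538 without one array) and Ube2k (-0.47). The unscaled shares, 6 of 13 and 3 of 8, stand against 24.9% lower among all genes above the median level. That percentage was not computed for the scaled arrays, so the counts given in brackets have no such comparison.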

How the data were processed

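Expression was measured on 6 Affymetrix arrays, 3 per group. Per the submitters' processing notes, RMA and version 4.0 of the Transcriptome Analysis Console were used for the deposited log2 levels; their options and genome build are not stated in those notes. Each array held values above 16 log2, the limit of a 16-bit scanner, and array medians ran from 4.18 to 4.38, so a scaling step may be unrecorded and differences are not given as folds. Of 65956 rows, 31258 named 1 gene, 1492 several and 33206 none here; the brightest row per symbol gave 30702 genes, with symbols updated through RefSeq (GRCm38.p6). No other columns were present (0).

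Genes were tested with limma 3.58.1 (lmFit, eBayes, two-sided, no covariate) in R 4.3.3, Benjamini-Hochberg adjusted over all genes, threshold 0.05. Intervals are 95%. The test was first run on simulated data, where it recovered 26% of changes of 0.5 log2, 70% of 1 log2 and 96% of 2 log2. It made 5 false calls there. In the simulation 50 genes were changed at each size, out of 30702. Far more were called in the data, 2855 higher and 3988 lower, so the recovered shares need not hold for the data. Genes that did not pass are not shown to be unchanged. Members and gene lists were chosen with earlier results of these data known, and promoter motifs after a first look at the promoters. Members given per array are the immunosubunits, their partners, the activators and the 2 largest called changes per particle; Psmd7, Psmd8, Psmd14 and Psmg4 were chosen after their values were seen. List genes named are up to 4 per list with the largest called changes, plus a fixed few. Alternatives were quantile normalization, centring, genes above the median level, row means, all rows, trend and robust, adjusted p under 0.01, an unmoderated statistic, a replicate block and leaving out each array. The number of arrays limits precision. Figures used matplotlib 3.10.9 in Python 3.11.15.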

Additional observations from a re-analysis of the deposited data

How the results depend on the processing

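With 3 arrays per group, the counts depended on the strictness of the test. Members lower without glutamine numbered 25, and 13 with the unmoderated statistic, 9 at an adjusted p under 0.01 and 13 to 24 with 1 array left out. Members higher numbered 0, and 1 (Psmg4) among genes above the median level and with the replicate block, and 0 without any single array. Over all genes, 2855 were higher, and 1453 after quantile normalization, 1215 after centring, 6773 over all rows, 1414 with the unmoderated statistic, 800 at an adjusted p under 0.01 and 1394 to 2489 with 1 array left out. In the same way 3988 were lower, and 6126 after centring, 2418 with the unmoderated statistic, 2143 at an adjusted p under 0.01 and 2666 to 4012 with 1 array left out. No called member changed sign under any of these settings. The labels do not say whether the replicate numbers pair the cultures. Arrays of the same number correlated at 0.07, -0.23 and 0.28 in their deviations from the group means. Replicate 1 with glutamine correlated best with the glutamine-free replicate 2 (0.30). These correlations cannot show whether cultures of the same number were set up together. The replicate block gave 24 lower members and ended the call of Psma7 (adjusted p = 0.0636). Within-array pair shifts kept their sign under every alternative run, but that of Psmb10 minus Psmb7 ran from -0.77 to -0.35 with 1 array left out. With the replicate block the exact p over sign changes was 0.5 for Psmb9 minus Psmb6 and 0.25, the smallest it can give, for Psmb10 minus Psmb7. The pair of Psmb8 and Psmb5 was not run.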
